A study of Mus musculus with 6 samples.

Results

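The 10 genes of the cardiac sarcomere, the contractile unit of heart muscle, described here were measured in libraries labelled as whole mouse embryo. They were chosen by symbol as thick filament, thin filament and Z-disc genes of the heart tube: Myl4, Myl7, Myh6, Myh7 and Ttn, Actc1, Tnnt2, Tnni1 and Tnnc1, and Actn2. All 10 were among the 24421 symbols of each count table. The 6 libraries came from the C57BL/6N strain at embryonic day 9.5, 3 labelled wild type (WT) and 3 labelled homozygous knockout of Lphn2 (Lphn2_KO). Lphn2, now Adgrl2, is the gene of latrophilin-2, a receptor of the adhesion GPCR class that the series title presents as marking the surface of cardiac progenitors and as serving heart development. The comparison asks how heart muscle transcripts differ in embryos labelled as lacking it. The sources used here leave unstated what was removed from the gene, whether a library holds 1 embryo or a pool, or whether the replicates are littermates. The p-values below therefore measure the spread between these libraries, part of which may be technical.

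In a sarcomere, thick filaments of myosin pull on thin filaments of actin that are anchored at the Z-disc. Calcium bound by troponin C moves troponin and tropomyosin off the actin sites and lets myosin engage. The heart tube is the first organ of the mouse embryo to contract, and it uses light chains and a troponin I form that the ventricle later replaces. Several of these genes, among them Actc1, Tnnc1, Tnni1, Myh7, Actn2 and Ttn, also serve in developing or slow skeletal muscle, whereas Myl7 and Myh6 are regarded as close to heart-specific.

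The sequence before the start site is shown for 4 members, 1 atrial light chain and 3 thin filament genes. These 4 were picked by hand, and each holds a match of the kinds marked below. Myl4, Tnni1 and Actn2 held no such match. Whether these sequences bear on the levels of the members was not tested. The windows come from RefSeq on GRCm38.p6, the assembly that mm10 names, and end just before the start site that RefSeq annotates. By symbol, 13 windows matched the 10 members. The Actc1 window lost its last 12 bases because GENCODE M21 places them in an exon, so it ends short of that site. It also lies inside the span that GENCODE M21 gives to Actc1 (114047282 to 114053548). Capitals mark matches on either strand to a CArG box, a MEF2 site, GATAA or CATTCC, the last being the core of the muscle CAT motif.
Myl7, chr11:5898783-5899032, minus strand: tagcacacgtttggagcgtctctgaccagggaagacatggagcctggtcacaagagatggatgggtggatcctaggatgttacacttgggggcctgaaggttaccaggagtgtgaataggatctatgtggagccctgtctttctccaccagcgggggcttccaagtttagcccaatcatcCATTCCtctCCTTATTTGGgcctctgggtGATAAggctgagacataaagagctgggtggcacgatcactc
Actc1, chr2:114052888-114053125, minus strand: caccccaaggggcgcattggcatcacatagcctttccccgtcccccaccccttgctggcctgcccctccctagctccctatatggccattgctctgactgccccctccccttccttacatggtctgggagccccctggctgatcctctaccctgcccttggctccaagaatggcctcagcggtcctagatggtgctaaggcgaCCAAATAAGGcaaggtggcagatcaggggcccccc
Tnnt2, chr1:135836084-135836333, plus strand: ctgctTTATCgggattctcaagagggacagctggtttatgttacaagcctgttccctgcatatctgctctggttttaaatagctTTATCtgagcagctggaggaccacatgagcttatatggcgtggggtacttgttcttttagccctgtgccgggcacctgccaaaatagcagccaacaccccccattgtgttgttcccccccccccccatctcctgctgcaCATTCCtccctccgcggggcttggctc
Tnnc1, chr14:31208062-31208311, plus strand: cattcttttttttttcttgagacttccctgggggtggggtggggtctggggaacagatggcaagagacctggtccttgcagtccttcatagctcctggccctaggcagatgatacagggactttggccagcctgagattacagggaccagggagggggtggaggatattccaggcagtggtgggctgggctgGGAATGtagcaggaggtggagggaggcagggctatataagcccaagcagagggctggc

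The CArG box, bound by serum response factor, was matched in windows of Myl7 (CCTTATTTGG) and Actc1 (CCAAATAAGG). These are 2 of the 13 member windows, against 1.47% of 32817 RefSeq windows of 250 bases. CATTCC was matched in 5 of the 13 (Myl7, Tnnt2, Tnnc1, Myh6 and Myh7) against 12.6%. GATAA was matched in 2 (Myl7 and Tnnt2) against 22.6%, and a MEF2 site in 1 (Ttn) against 2.92%. The E-box CANNTG, in 11 of the 13 windows (8 members) against 66.2%, is not capitalised. Nor is GGTGTG, in 2 windows, both of Tnni1, against 16.3%. A MEF2 site and a CArG box can share bases, since both hold a run of A and T. These matches describe the letters in the windows and nothing of what binds there.

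Levels are given in CPM, counts scaled to the TMM-adjusted library size, with means ± SD over 3 libraries. They are levels of 3' end tags, so gene length does not enter them. Total counts lay between 14476809 and 36213611, and 1 count was worth 0.0261 to 0.0713 CPM. Adgrl2 itself was read at 10.9, 7.56 and 15.96 CPM in WT replicates 1, 2 and 3 and at 5.49, 1.67 and 2.78 CPM in Lphn2_KO replicates 1, 2 and 3 (edgeR adjusted p = 0.194). Tags at its 3' end may lie outside what was deleted, but the source of the Lphn2_KO counts was not tested. Transcripts of the maternal decidua were abundant in libraries labelled as embryo: Prl8a2, a decidual prolactin, averaged 20572 ± 7235 CPM in WT and 3171 ± 2042 CPM in Lphn2_KO. It was picked by the naming rule and did not stand for its list, of which 9 of 13 genes had a higher estimate in Lphn2_KO (median log2 fold change 0.89). Lists of red cell and neural genes differed in level. The 14 primitive erythroid genes summed to 5230, 5554 and 11500 CPM in WT replicates 1, 2 and 3. In Lphn2_KO replicates 1, 2 and 3 they summed to 2156, 2545 and 1594 CPM. The alpha globins Hba-a1 and Hba-a2 had identical values in every library (4986 CPM each in WT replicate 3). These sums may therefore count the same tags more than once. All 14 estimates were lower in Lphn2_KO. Hbb-y, an embryonic globin of the list, stood at 1194, 931 and 924 CPM in WT and at 364, 21.3 and 18.9 CPM in Lphn2_KO. Neural progenitor genes were sparse. Of 18 neural progenitor genes 7 passed the filter on low counts, and the 18 summed to between 25.2 and 239.7 CPM in WT and between 8.67 and 25.02 CPM in Lphn2_KO.

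The sarcomere genes were scarce in every library and scarcest in the knockout. Their summed level was 91.0, 42.8 and 392.7 CPM in WT replicates 1, 2 and 3 and 22.5, 7.87 and 18.8 CPM in Lphn2_KO replicates 1, 2 and 3, at most 0.0415% of a library's counts. Every Lphn2_KO sum lay below every WT sum, but the lowest WT sum was 1.90 times the highest Lphn2_KO sum while the WT sums themselves spanned 9.18-fold. In whole-tissue RNA, fewer heart muscle cells, less RNA per cell and a smaller share of embryo in a library cannot be told apart. Nkx2-5, the homeobox gene that marks cardiac muscle precursors and is named here after its values were seen, stood at 0.25, 0 and 0.52 CPM in WT and at 0 in all 3 Lphn2_KO libraries. It was too low to be tested, and WT replicate 2 equalled the Lphn2_KO libraries. Of the 12 tested genes on its list of 15 heart transcription factors, 8 had a lower and 4 a higher estimate.

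**Figure D1:**
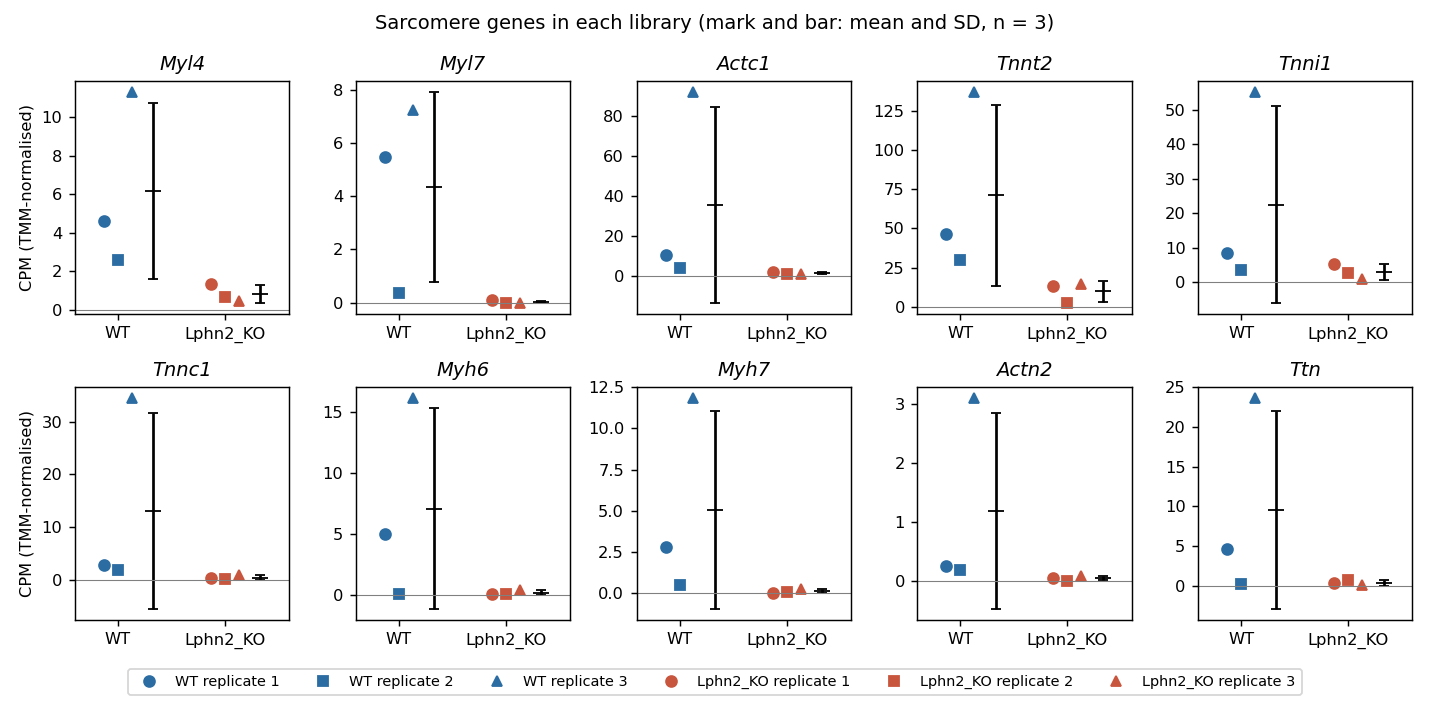
Levels of the 10 sarcomere genes in each library, in TMM-normalised CPM on linear axes that differ between panels, with WT in blue and Lphn2_KO in red, one symbol per replicate, and the mean with its SD (n = 3) beside each group. WT replicate 3 is the highest point in all 10 panels and the Lphn2_KO points lie near 0; SD bars that cross 0 show the spread among WT libraries.

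Among the thick filament genes, Myl4 (mm10 chromosome 11, 104550663 to 104595753, plus strand), the essential light chain of atrial and embryonic muscle, was read at 4.60, 2.56 and 11.3 CPM in WT replicates 1, 2 and 3. In Lphn2_KO replicates 1, 2 and 3 it was read at 1.33, 0.667 and 0.428 CPM. The groups did not overlap, at 6.17 ± 4.60 and 0.809 ± 0.469 CPM, and the log2 fold change was -2.90 ± 0.71 (SE). It missed the threshold of 0.05 in edgeR's quasi-likelihood test (Benjamini-Hochberg adjusted p = 0.173).

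Myl7 (chromosome 11, 5896637 to 5898782, minus strand), the atrial regulatory light chain, had 151, 6 and 277 counts in WT replicates 1, 2 and 3 and 2, 0 and 0 counts in the Lphn2_KO libraries. These are 5.47, 0.366 and 7.24 CPM against 0.0784, 0 and 0 CPM. The 2 knockout counts came from Lphn2_KO replicate 1, and the groups did not overlap. Over pooled libraries the WT to Lphn2_KO ratio was 144, with a 95% exact Poisson interval of 39.6 to 1190 that covers counting error only.

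Myh6 (chromosome 14, 54941921 to 54966927, minus strand), the alpha myosin heavy chain that gives fast contraction, stood at 4.999, 0.122 and 16.2 CPM in WT and at 0.0784, 0.133 and 0.428 CPM in Lphn2_KO. WT replicate 2, with 2 counts, fell inside the Lphn2_KO range of 2 to 6 counts. All 6 Myh6 counts were even, so each tag may have been counted more than once, which was not tested.

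Myh7 (chromosome 14, 54970684 to 54994626, minus strand), the slower beta heavy chain of the ventricle, stood at 2.79, 0.487 and 11.9 CPM in WT and at 0.0392, 0.0667 and 0.285 CPM in Lphn2_KO. The groups did not overlap, although WT replicate 2 rested on 8 counts and Lphn2_KO replicate 3 on 4. Of the 50-base words in the last 500 bases of the Myh7 transcripts, 22.2% also occur in Myh6, and 21.7% of those of Myh6 occur in Myh7, so tags may be shared between this pair; the other 8 members shared 0%. The antisense RNA Mhrt overlaps Myh7 and stood at exactly the Myh7 values in the 3 Lphn2_KO libraries, against 1.41, 0 and 4.44 CPM in WT. How the counting used strand is not given in the sources used here, so these few Lphn2_KO counts are uncertain as to gene.

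Ttn (chromosome 2, 76703980 to 76982547, minus strand) encodes titin, the spring that spans from Z-disc to the middle of the thick filament. It was read at 4.64, 0.244 and 23.7 CPM in WT and at 0.353, 0.800 and 0.0713 CPM in Lphn2_KO. WT replicate 2 lay below both Lphn2_KO replicates 1 and 2, so the groups overlapped. The log2 fold change was -4.53 ± 1.496 (SE, edgeR adjusted p = 0.237).

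Of the thin filament genes, Actc1 (chromosome 2, 114047282 to 114053548, minus strand) encodes cardiac alpha actin, an actin of the heart's thin filament. It was read at 10.6, 3.72 and 92.2 CPM in WT replicates 1, 2 and 3 and at 1.80, 0.867 and 0.998 CPM in Lphn2_KO replicates 1, 2 and 3. All Lphn2_KO values lay below WT replicate 2, the lowest of WT, and WT replicate 3 lay 8.69-fold above WT replicate 1. The log2 fold change was -4.83 ± 1.23 (SE, edgeR adjusted p = 0.176).

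Tnnt2 (chromosome 1, 135836354 to 135852260, plus strand), cardiac troponin T, which ties the troponin complex to tropomyosin, took the largest share of the summed level in all libraries except Lphn2_KO replicate 2. Its levels were 46.3, 29.6 and 137 CPM in WT and 13.1, 2.40 and 14.8 CPM in Lphn2_KO. The groups did not overlap, and Lphn2_KO replicate 2 was the lowest (log2 fold change -2.82 ± 0.80 SE, edgeR adjusted p = 0.194). All 6 Tnnt2 counts were divisible by 3, so its counting error may be larger than the 36 to 5253 counts show.

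Tnni1 (chromosome 1, 135779434 to 135810989, plus strand), the slow skeletal troponin I that the embryonic heart uses before its adult form, was read at 8.55, 3.66 and 55.3 CPM in WT and at 5.41, 2.80 and 0.855 CPM in Lphn2_KO. Lphn2_KO replicate 1 lay above WT replicate 2, so the groups overlapped. All 6 Tnni1 counts were even, so each tag may have been counted more than once here too. With a log2 fold change of -2.88 ± 1.09 (SE), Tnni1 had the highest adjusted p of the tested members (edgeR, 0.277). It took 35.6% of the summed member level in Lphn2_KO replicate 2 and 24.1% in replicate 1, against 8.55% to 14.1% in WT and 4.55% in Lphn2_KO replicate 3.

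Tnnc1 (chromosome 14, 31208312 to 31211729, plus strand), the calcium sensor of cardiac and slow muscle, was read at 2.79, 1.83 and 34.5 CPM in WT and at 0.275, 0.133 and 0.927 CPM in Lphn2_KO. The groups did not overlap, and WT replicate 3 held 92.5% of the 1428 WT counts. The log2 fold change was -4.91 ± 1.37 (SE, edgeR adjusted p = 0.193). Nisch overlaps Tnnc1 on the other strand and stood at 59.96 ± 20.8 CPM in WT and 58.9 ± 11.95 CPM in Lphn2_KO.

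At the Z-disc, Actn2 (chromosome 13, 12269426 to 12340760, minus strand), the alpha-actinin that crosslinks actin there, was the least read member. It had 7, 3 and 119 counts in WT and 1, 0 and 1 in Lphn2_KO, or 0.254, 0.183 and 3.11 CPM against 0.0392, 0 and 0.0713 CPM. Outside WT replicate 3 no library held more than 7 counts, so its groups were separated by a few tags. The pooled WT to Lphn2_KO ratio was 42.7, with a 95% exact Poisson interval of 11.6 to 357 that covers counting error only.

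Over the 10 members, 7 had every Lphn2_KO value below every WT value and 3 (Tnni1, Myh6 and Ttn) overlapped. Among the members that passed the filter on low counts this held for 4 of 6, beside 9.39% of all 13848 genes that passed it. The filter on low counts asked for about 0.473 CPM in 3 libraries and kept 6 members, of which Myl4, Actc1, Tnnt2, Tnni1 and Tnnc1 reached it in all 3 WT libraries and Ttn in 2 WT libraries and 1 Lphn2_KO library. Myl7, Myh6 and Myh7 reached it in WT replicates 1 and 3 only and Actn2 in WT replicate 3 only, so these 4 were not tested. A gene can enter through the group where it is high, so the count of members tested is a description.

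None of the 6 tested members passed in edgeR (adjusted p of 0.173 to 0.277), where 0.0505% of all genes were called lower and 0% higher. At an unadjusted edgeR p under 0.05 all 6 were lower and 0 higher, beside 6.86% and 8.68% of all genes. Estimates below 0, which all 6 had, were found in 53.4% of all genes. Limma-voom called 0 of the 6, with 0.0505% of all genes called lower and 0% higher. Its unadjusted p was under 0.05 only for Myl4 (0.038) and Tnnt2 (0.00956). For Actc1, Tnni1, Tnnc1 and Ttn the unadjusted limma-voom p was 0.151, 0.157, 0.186 and 0.261. DESeq2 called Myl4, Actc1, Tnnt2, Tnni1 and Ttn (adjusted p = 0.00421, 0.0044, 0.00141, 0.0228 and 0.00544). For Tnnc1 it gave a log2 fold change (-4.91) but neither a p nor an adjusted p. Over all 13462 genes to which DESeq2 gave an adjusted p, it called 2.87% lower and 3.49% higher. The median log2 fold change of the 6 was -3.72, beside -0.04 over all genes tested. With no filter all 10 members were fitted, with a median of -4.80 beside -0.13 over 18788 genes, and Myl7, Myh6, Myh7 and Actn2 had adjusted p of 0.16, 0.2, 0.178 and 0.252 (edgeR).

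The members also varied widely within WT. WT replicate 3 was the highest and WT replicate 2 the lowest WT library in 10 of 10 members, an order that 24% of all genes tested showed. The coefficient of variation over the 3 WT libraries ran from 74.5% to 143% over the members, beside a median of 25.1% over all genes tested. WT replicate 3 supplied between 63.8% (Myl7) and 92.5% (Tnnc1) of a member's WT counts, against 44.6% of all WT counts, and 10.2% of genes tested reached 63.8%. Over the 6 libraries the pairwise correlation of log2 CPM among the 10 members ran from 0.635 to 0.98 with a median of 0.88; the points share library and depth.

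Without WT replicate 3 the log2 fold changes of the 6 tested members shrank but kept their sign. They became -2.11 for Myl4, -2.53 for Actc1, -1.91 for Tnnt2, -0.99 for Tnni1, -2.39 for Tnnc1 and -2.58 for Ttn, with edgeR adjusted p between 0.302 and 0.641, and Tnni1 and Ttn lost their unadjusted p under 0.05 (0.236 and 0.094). The median over the tested members was then -2.25. WT replicate 1 carries another first code number in its description (32) than the other 5 libraries (45), and the labels do not say what the code marks. Without that library the 6 values lay between -5.37 and -3.03 (edgeR adjusted p between 0.345 and 0.37). With WT replicate 2 as the only WT library, an alternative added after the data were seen, Myl4, Actc1, Tnnt2, Tnni1 and Tnnc1 stood at -1.63, -1.59, -1.56, -0.26 and -2.05 and Ttn turned to 0.71, none with an adjusted p under 0.5.

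**Figure D2:**
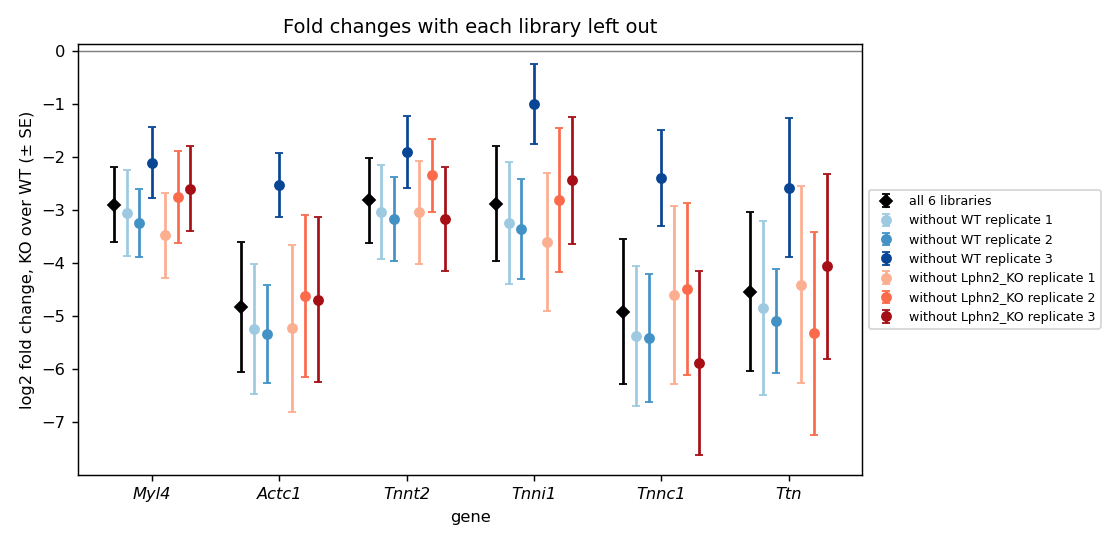
Log2 fold changes (Lphn2_KO over WT, edgeR) of the 6 tested sarcomere genes with their standard errors, for all 6 libraries (black diamonds) and with each library left out (blue for a WT and red for an Lphn2_KO library). All values lie below 0, and leaving out WT replicate 3 brings each gene closest to 0, with Tnni1 at -0.99.

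Markers of skeletal muscle stood out in the same WT library. The 14 genes of that list summed to 81.8, 23.1 and 550.9 CPM in WT replicates 1, 2 and 3 and to between 6.2 and 21.4 CPM in Lphn2_KO. Myog, which drives the differentiation of skeletal muscle, was read at 1.70, 0.548 and 129 CPM in WT and at 0.428 CPM or less in Lphn2_KO, and Myod1 at 0, 0 and 9.64 CPM in WT and at 0 in every Lphn2_KO library. Myh3 and Myh8, the embryonic and perinatal skeletal heavy chains, stood at 24.6 and 20.04 CPM in WT replicate 3 and at 0.670 CPM or less in the other 5 libraries. Myog, Myod1, Myh3 and Myh8 were chosen after their values were seen. Of the list, Acta1 and Tnnt1, the pair the naming rule picks, are also expressed in the embryonic heart, and had 48.8, 0.975 and 112 CPM and 18.4, 14.8 and 128 CPM in WT replicates 1, 2 and 3.

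The members differed in how far WT replicate 3 exceeded WT replicate 1. The ratio was lowest for Myl7 (1.32), Myl4 (2.46), Tnnt2 (2.96) and Myh6 (3.24), intermediate for Myh7 (4.25), Ttn (5.11) and Tnni1 (6.47), and highest for Actc1 (8.69), Actn2 (12.3) and Tnnc1 (12.4). Among the skeletal muscle markers read in WT replicate 1 it ran from 0.637 for Tnni2 to 226 for Myh3, with Acta1 at 2.30, Actn3 at 3.01, Tnnt1 at 6.99 and Myog at 75.6, so the ranges of both lists overlapped. The part of skeletal muscle RNA in the sarcomere values was not tested.

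**Figure D3:**
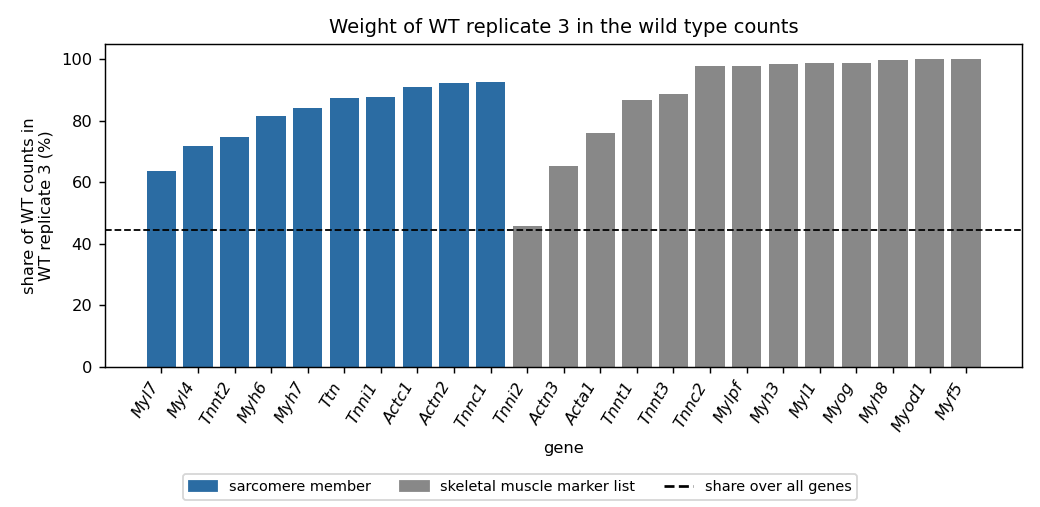
Share of the counts of the 3 WT libraries that came from WT replicate 3, in percent, for the 10 sarcomere genes (blue) and 13 of the 14 skeletal muscle markers (grey; Myf6, with 1 WT count, is left out), with the share over all genes as a dashed line at 44.6%. Every sarcomere gene lies above the line, from Myl7 at 63.8% to Tnnc1 at 92.5%, and Myog, Myh3, Myh8, Myl1, Myod1 and Myf5 lie above 98%.

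WT replicate 1 stood apart in smooth muscle genes. The 10 genes of that list summed to 1482 CPM there and to between 153.6 and 235 CPM in the other 5 libraries. Cnn1, calponin of smooth muscle, was read at 87.8, 1.46 and 2.85 CPM in WT and at 0.627, 1.0 and 1.78 CPM in Lphn2_KO, and Myl9, the regulatory light chain of smooth muscle, at 45.6, 0.914 and 13.1 CPM against 2.20, 1.93 and 1.64 CPM. The groups overlapped in both. The sarcomere members did not share this pattern, since WT replicate 3 and not 1 was their highest library.

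Other lists of embryonic tissue were low in the same libraries as the sarcomere genes. The neural progenitor genes summed to 89.4, 25.2 and 239.7 CPM in WT replicates 1, 2 and 3 and to 25.02, 8.67 and 8.91 CPM in Lphn2_KO replicates 1, 2 and 3. The summed sarcomere level was 1.02, 1.70 and 1.64 times the neural sum in WT and 0.898, 0.908 and 2.11 times in Lphn2_KO, so this ratio overlapped between the groups. Against the skeletal muscle sum the ratio was 1.11, 1.85 and 0.713 in WT and 1.05, 1.27 and 1.81 in Lphn2_KO, which also overlapped. Pax6 and Hes5, the neural genes picked by the naming rule, stood at 13.4 ± 6.99 and 26.2 ± 26.5 CPM in WT and at 2.76 ± 0.532 and 0.654 ± 0.512 CPM in Lphn2_KO. The part that the embryo's share of each library has in the sarcomere difference was not tested.

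Extraembryonic and maternal lists followed other orders of libraries, apart from the erythroid list, which came close to the sarcomere order. Trophoblast genes had a median log2 difference from the WT mean of 0.33 in Lphn2_KO replicate 1 but -5.59 and -4.81 in replicates 2 and 3, while the sarcomere median was -2.52, -3.41 and -3.51. Yolk sac endoderm genes stood at -1.32, -6.14 and -5.72 and erythroid genes at -1.27, -4.66 and -4.60. In WT replicates 1, 2 and 3 the erythroid medians were -0.29, -0.47 and 1.06 and the sarcomere medians -0.40, -1.64 and 2.38. Both lists thus had WT replicate 3 highest and WT replicate 2 lowest among the WT libraries. The decidual list stood at 0.28, 1.01 and 1.04, with 9 estimates higher and 4 lower. Endothelial and leukocyte lists also lay above the WT mean, with medians of 0.73 to 1.17 and 1.05 to 1.54 over the Lphn2_KO libraries. Examples picked by the naming rule were Tpbpa (138 ± 89.5 and 22.4 ± 36.7 CPM in WT and Lphn2_KO) of the placenta and Trf (99.0 ± 57.0 and 25.6 ± 8.86 CPM) of the yolk sac. Others were the red cell enzyme Alas2 (93.9 ± 24.7 and 29.7 ± 7.88 CPM), the endothelial gene Emcn (33.5 ± 4.83 and 75.95 ± 16.3 CPM) and Gzma (26.7 ± 6.60 and 72.8 ± 18.4 CPM) of cytotoxic lymphocytes. The other gene picked for each list was Prl3b1 of the placenta, Serpina1a of the yolk sac, Slc4a1 of red cells, Ramp2 of endothelium and Ptprc of leukocytes, with log2 fold changes of -3.44, -4.95, -3.85, 0.87 and 1.25, and Erv3 of the decidual list stood at -3.14. None of these genes passed in edgeR, with adjusted p of 0.164 or more.

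**Figure D4:**
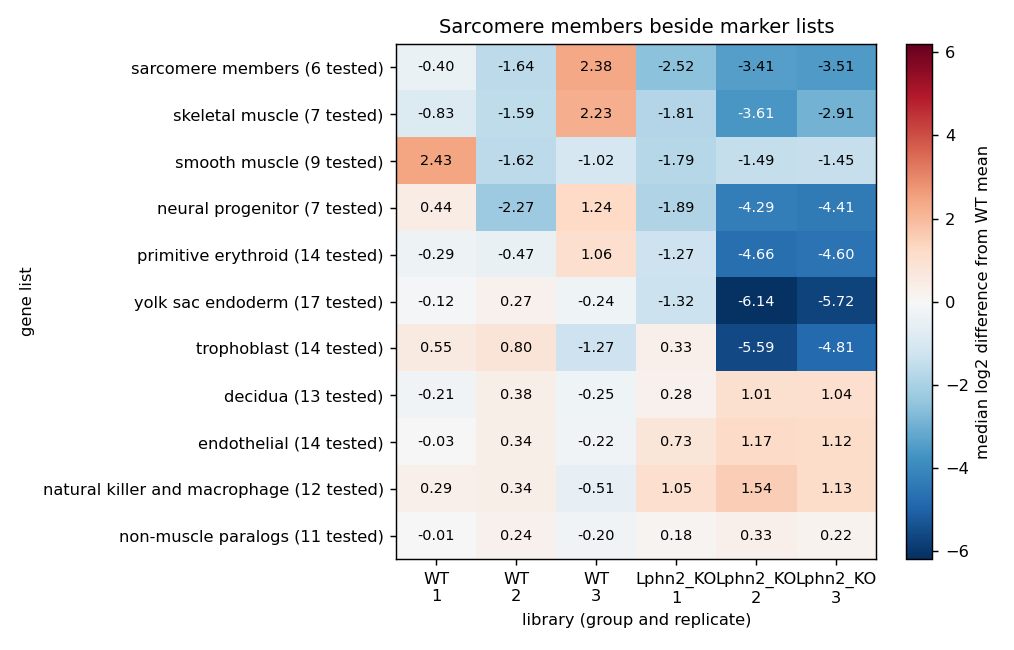
Median log2 difference from the WT mean over the tested genes of each list, in log2 CPM with a prior count of 2, for each library (columns); the colour scale runs from blue (below the WT mean) to red (above). The sarcomere row reads 2.38 in WT replicate 3 and -2.52 to -3.51 in the Lphn2_KO libraries, beside 2.23 and -1.81 to -3.61 for skeletal muscle.

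The non-muscle relatives of the members, which build the cytoskeleton of most cells, did not follow them. Of 11 such actin, myosin, alpha-actinin and tropomyosin genes all were tested, 2 had a lower and 9 a higher mean estimate in Lphn2_KO, and 0 passed in edgeR, with 2 at an unadjusted p under 0.05. Their log2 fold changes ran from -0.61 to 0.56 with a median of 0.25. Myl12a and Myl12b, non-muscle regulatory light chains, stood at 260 ± 53.6 and 40.7 ± 4.32 CPM in WT and at 383 ± 37.3 and 53.9 ± 3.89 CPM in Lphn2_KO (edgeR adjusted p = 0.258 and 0.298). Actb, the common cytoplasmic actin, stood at 3365 ± 526 and 4592 ± 806 CPM.

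A wider list of 31 sarcomere, Z-disc and assembly genes gave a mixed picture among its tested genes. Genes of the list that were too low to be tested do not enter the counts of estimates or the median that follow. Of the 14 that were tested, 10 had a lower and 4 a higher estimate, with a median log2 fold change of -0.54 and 0 past the edgeR threshold in either direction; at an unadjusted p under 0.05, 5 were lower and 1 higher. Smpx, a small muscle protein of the costamere, was read at 8.37, 1.28 and 44.0 CPM in WT and had 3 counts over all Lphn2_KO libraries. The pooled ratio was 427, with a 95% exact Poisson interval of 146 to 2070 that covers counting error only. Smpx was no longer among the tested genes once common divisors were removed from the counts. Its 3 Lphn2_KO counts may therefore stand for fewer tags, and the interval may be too narrow. Myl3, the ventricular and slow muscle essential light chain, was read at 11.3, 0.366 and 58.5 CPM in WT and at 0.275, 0.0667 and 0.570 CPM in Lphn2_KO, so WT replicate 2 lay within the Lphn2_KO range.

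Nexn encodes an actin-binding protein of the Z-disc. It was read at 9.89, 2.92 and 11.97 CPM in WT and at 1.49, 1.27 and 1.78 CPM in Lphn2_KO (log2 fold change -2.45 ± 0.55 SE, edgeR adjusted p = 0.167). Myom1, the M-band crosslinker of myosin, stood at 9.31, 2.68 and 16.2 CPM against 0.392, 2.13 and 0.998 CPM (edgeR adjusted p = 0.187). Ldb3, a Z-disc scaffold, stood at 8.40, 2.44 and 34.0 CPM against 0.196, 2.33 and 0 CPM (edgeR adjusted p = 0.254). In Myom1 and Ldb3 the groups were separated only by the gap between WT replicate 2 and Lphn2_KO replicate 2.

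Des, the muscle intermediate filament desmin, was 1 of the 4 genes of this list with a higher estimate, beside Trim63, Unc45b and Pdlim5 (log2 fold changes 1.24, 0.52 and 0.13). It was read at 1170, 1493 and 928 CPM in WT and at 2014, 3530 and 3538 CPM in Lphn2_KO, with all Lphn2_KO values above WT (log2 fold change 1.34 ± 0.29 SE, edgeR adjusted p = 0.166). Des is also a gene of decidual stroma and stands on the decidual list here. The wider list therefore cannot be read by its summed level, which Des and Tpm1 made up for the most part. Mybpc3, cardiac myosin-binding protein C, was too low to be tested and is named after its values were seen: it stood at 9.31, 0.0609 and 20.5 CPM in WT and at 0, 0.200 and 0.0713 CPM in Lphn2_KO, and WT replicate 2, with 1 count, lay within the Lphn2_KO range.

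Among 15 transcription factors of heart muscle 12 were tested, with 8 estimates lower and 4 higher, a median log2 fold change of -0.56, 0 past the edgeR threshold and 3 lower at an unadjusted p under 0.05. Tbx5, of the atria and left ventricle, was read at 4.93, 1.77 and 15.7 CPM in WT and at 1.37, 0.600 and 0.642 CPM in Lphn2_KO, with WT replicate 3 highest as in the sarcomere genes. Gata6 and Gata4, zinc finger factors of heart and endoderm, stood at 2.64, 2.99 and 5.25 CPM and 0.725, 1.16 and 1.33 CPM in WT. In Lphn2_KO they stood at 0.902, 0.0667 and 0.570 CPM and 0.314, 0.0667 and 0 CPM. Isl1, of the second heart field, stood at 0.906, 0 and 8.26 CPM in WT and at 0.588, 0.0667 and 0.0713 CPM in Lphn2_KO, with overlap. The yolk sac also expresses Gata4 and Gata6, so these values need not come from the heart.

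Genes whose log2 CPM followed the mean profile of the 6 tested members most closely over the 6 libraries had correlations of 0.986 to 0.994 among 12765 candidates outside the lists. They were Cmss1, Sh3bp4, Mki67, Bend5, Gpr62, Ift81, Ptprd, Gm266, Sfrp2 and Clip3. Mki67, a marker of dividing cells, was read at 22.8, 16.6 and 36.5 CPM in WT and at 16.4, 11.6 and 12.8 CPM in Lphn2_KO, a far smaller spread than that of the sarcomere genes. Sfrp2, a secreted Wnt modulator, was read at 2.93, 1.04 and 21.6 CPM against 0.588, 0.0667 and 0.0713 CPM, and Ptprd, a receptor phosphatase of neurons, at 2.43, 0.853 and 38.0 CPM against 0.471, 0.267 and 0.0713 CPM. These correlations rest on 6 points that share library and depth.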

How the data were processed

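RNA from 3 WT and 3 Lphn2_KO libraries (500 ng of total RNA each, Lexogen QuantSeq, per the labels' protocols) was analysed from the counts per gene symbol that the authors deposited without normalization, 1 table per library. Bowtie2, edgeR and mm10 are named per the submitters' processing notes; no version, annotation, counting program or strand setting is given in the sources used here. Among the 11680 genes with 10 or more counts in every library, 19.9% had 6 counts with a common divisor above 1, so counting error can exceed what a count shows.

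Genes were filtered with filterByExpr of edgeR 4.0.16 (minimum count 10), scaled by TMM and tested by the quasi-likelihood test with no covariate, with Benjamini-Hochberg adjustment over all 13848 genes and a threshold of 0.05. DESeq2 1.42.0 and limma 3.58.1 (voom) were alternatives, in R 4.3.3. The script was tested on simulated data. Figures used matplotlib 3.10.9. Positions and transcript ends come from GENCODE M21 on mm10.

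The members and gene lists were chosen with earlier results of these data known. Beyond Adgrl2 and the members, genes were named by smallest p: up to 6 of the wider sarcomere list, 4 transcription factors, 3 non-muscle relatives and 2 from every marker list, plus the 10 of most similar profile averaging at least 1 CPM. Genes named outside this rule (neighbours that overlap a member, genes that make up a list's sum or its higher estimates, and markers read in a figure) were chosen after their values were seen. Marker lists were given by counts, medians and summed levels.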

Additional observations from a re-analysis of the deposited data

How the results depend on the processing

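Of 13848 genes, 7 were lower and 0 higher in Lphn2_KO, and 0 of the 6 tested sarcomere members were called. DESeq2 gave 387 lower and 470 higher genes and called 5 members. One symbol per identical set of counts left 0 lower genes, as did WT replicate 2 alone against Lphn2_KO and Lphn2_KO replicate 1 alone against WT, both chosen after seeing the data. With 1 library left out, lower genes ran from 0 to 466, higher genes from 0 to 252 and called members from 0 to 0. The 466 and 252 came without Lphn2_KO replicate 1; lower genes were 0 without WT replicate 1 or Lphn2_KO replicate 2 or 3, 11 without WT replicate 2 and 10 without WT replicate 3. The cause was not tested. The tested members' median ran from -5.34 (without WT replicate 2, over 9 members) to -2.25 (without WT replicate 3, over 6). It was -1.57 with WT replicate 2 alone, where Ttn (0.71), Isl1 (5.23, with 0 counts in that library) and Myl9 (1.06) changed sign. The lone library is assumed to vary like the other group. Other scalings, filters and divisor removal kept both gene counts within 1.5 times.

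Same-numbered libraries deviated together with correlations of 0.127, -0.024 and 0.071 over genes, so the numbers were not taken as pairs, and WT replicate 2 did not correlate best with its own number. With the replicate block 0 genes were lower, 0 higher and 0 members called, and the members' median was -3.12. At 1 count per 0.0261 to 0.0713 CPM, Actn2, Myl7, Myh6 and Myh7 cannot be told from 0 in most Lphn2_KO libraries.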
